A study of Mus musculus with 20 samples.

Results

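Serpins and defensins were followed in mouse embryonic fibroblasts (MEF), cultured connective tissue cells of the mouse embryo, from mice without the PML protein (KO) and from wild-type mice (WT). Members were all genes in the RNA tables whose symbol starts with Serpin, Defa or Defb. This gave 121 genes, 63 serpins, 15 alpha-defensins and 43 beta-defensins, among 23200 lines in the numbered tables and 23235 lines in the unnumbered tables. They filled 120 distinct lines, since Serpina3f and Serpina3g shared 1 line, and Defb41 and Defa4 stood on lines shared with predicted genes. Of the 121 genes, 120 were placed on the mouse genome with RefSeq genes of GRCm38.p6, which is mm10, and Defa4 was not. All coordinates are on mm10.

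KO cells came from Pml-null mice and WT cells from wild-type mice, both C57BL/6, and all were untreated and proliferating at passage 10 to 15. Called regions from chromatin immunoprecipitation (ChIP) were given for PML, H3K9me3, H3K27me3, H3.3-Flag, H3.3-HA and H3, with 1 library per target and genotype. The H3.3 in these libraries was a tagged copy brought in on a plasmid by nucleofection, whereas cells for RNA were not transfected. RNA was given as FPKM, a count of fragments divided by transcript length and by library size. Of the 8 RNA samples, 3 numbered replicates per genotype had been pooled by the authors into 1 table each (the numbered pair), and 1 unnumbered sample per genotype had a table of its own (the unnumbered pair). No value therefore had a replicate, no test was possible, and every difference below lies between single libraries or pooled tables and is a description.

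Serpins share a fold with an exposed loop that a target protease cuts, after which the serpin changes shape and traps the enzyme, although some members have lost this activity. The clades a to i are named by letter, and many members sit in tandem clusters that grew by gene duplication. Defensins are small antimicrobial peptides held together by disulfide bonds. Alpha-defensins are made by Paneth cells of the mouse gut, and beta-defensins by epithelia, with many beta-defensins made in the male reproductive tract. H3K9me3 marks heterochromatin, H3K27me3 is set by Polycomb complexes, and H3.3 is a histone variant laid down outside DNA replication, both at active genes and in heterochromatin.

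Several properties of the tables touch all RNA values below. Summed FPKM was 417175 in KO and 964437 in WT of the numbered pair, and 508827 in KO and 524662 in WT of the unnumbered pair. Pml RNA was 10.2 FPKM in KO and 15.0 in WT of the numbered pair, with 4.22 in KO and 7.62 in WT of the unnumbered pair, so it was present under both labels, and no source used here says which exons the null allele lacks. Xist, made from the inactive X, was 0.0517 FPKM in KO and 19.5 in WT in the numbered pair, and the Y gene Ddx3y was 7.67 in KO and 0.0384 in WT, so sex and genotype cannot be told apart there. In the unnumbered pair the 9 macrophage markers summed to 3.82 FPKM in KO and 95.4 in WT, with 8 of 9 at least 2-fold lower in KO. In the numbered pair they summed to 0.973 in KO and 1.09 in WT, and Tyrobp and the 3 C1q genes were listed at 0 in both genotypes. The fibroblast markers were at 1 FPKM or more for 7 of 8 genes in both numbered tables and 8 of 8 in both unnumbered tables. Thy1, the exception, was 0.100 in KO and 0.141 in WT in the numbered pair, against 120 in KO and 210 in WT in the unnumbered pair. In either pair, 1 of 7 epithelial, 0 of 5 hepatocyte and 1 of 5 endothelial markers reached 1 FPKM. Read depth was unknown for every library.

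Few of these genes were transcribed. With expression set at 1 FPKM or more in at least 1 of the 4 tables, 16 of 120 member lines (17 genes) were expressed and 104 were silent, where 53.4% of all genes were expressed. All 16 were serpins, from 62 serpin lines. None of the 15 alpha-defensin lines and none of the 43 beta-defensin lines was expressed, and 15 and 37 of them were listed at 0 in all 4 tables. Altogether 76 member lines were at 0 throughout. In single tables the lines at 0 were 80 in KO (66.7%) and 95 in WT (79.2%) of the numbered pair. In the unnumbered pair they were 91 in KO (75.8%) and 97 in WT (80.8%). Of all genes, 28.8% in KO and 37.8% in WT were at 0 in the numbered pair, and 34.0% in KO and 33.9% in WT in the unnumbered pair. The lower number in KO of the numbered pair was thus seen over all genes too. Housekeeping genes, 12 in number, were never at 0. The silent line with the highest value was Defb25, at 0.927 FPKM in KO and 0.483 in WT of the numbered pair and 0 in both genotypes of the unnumbered pair. The expressed line with the lowest maximum was Serpinb2, at 1.15 FPKM in KO and 0.720 in WT of the numbered pair and at 0.372 in KO and 0.0624 in WT of the unnumbered pair. Summed serpin FPKM was 1404 in KO and 4319 in WT of the numbered pair, and 2779 in KO and 2870 in WT of the unnumbered pair.

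Among secreted and matrix serpins, Serpinh1 stood at the top. It encodes HSP47, the collagen chaperone of the endoplasmic reticulum, which is no protease inhibitor. It had 615 FPKM in KO and 2092 in WT of the numbered pair, and 1346 in KO and 1718 in WT of the unnumbered pair. KO was below WT in both pairs, with a difference of log2(FPKM + 1), KO minus WT, of -1.76 and -0.35. Serpinf1, the antiangiogenic factor PEDF, followed the same order, with 180.0 FPKM in KO and 504 in WT, and with 350.5 in KO and 529.6 in WT. Its differences were -1.48 and -0.59. Serpine2, protease nexin-1, which inhibits thrombin and plasminogen activators, had 8.79 FPKM in KO and 16.8 in WT of the numbered pair, against 173 in KO and 205 in WT of the unnumbered pair. Its level thus depended far more on the pair of tables than on the genotype, with differences of -0.86 and -0.24.

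Serpini1 and Serping1 were secreted serpins of low abundance. Serpini1, neuroserpin, was low everywhere, at 0.482 FPKM in KO and 0.0635 in WT of the numbered pair and at 1.30 in KO and 1.20 in WT of the unnumbered pair. Serping1, the inhibitor of complement C1, was measured only in the unnumbered pair, with 2.82 FPKM in KO and 10.5 in WT, a difference of -1.58. Its numbered values were 0.493 in KO and 0.328 in WT. The macrophage markers moved the same way as Serping1 in the unnumbered pair, and their part in its difference was not tested. In bulk RNA, fewer cells of a type and less RNA per cell cannot be told apart.

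Clade b serpins act inside cells, mostly against proteases of granules and lysosomes. Serpinb6a, an inhibitor of cathepsin G, was the most abundant, with 119 FPKM in KO and 288 in WT of the numbered pair and 187 in KO and 155 in WT of the unnumbered pair. Its differences, -1.27 and 0.27, had opposite signs. Serpinb9, the granzyme B inhibitor, had 3.32 FPKM in KO and 28.7 in WT, and then 8.78 in KO and 18.8 in WT. KO lay below WT in both pairs, by -2.78 and -1.02. Its mouse relative Serpinb9b had 1.53 FPKM in KO and 46.0 in WT of the numbered pair, and 4.75 in KO and 3.78 in WT of the unnumbered pair, with differences of -4.22 and 0.27. Serpinb1a, an inhibitor of neutrophil elastase, had 0.602 FPKM in KO and 17.3 in WT of the numbered pair, whereas it had 16.9 in KO and 16.4 in WT of the unnumbered pair. For each of these 4 genes the KO table of the numbered pair thus held the lowest value of the 4 tables. It did so too for Serpinh1, Serpinf1, Serpine2, Serpinb8 and the line of Serpina3f and Serpina3g. That table also had the lowest summed FPKM, 417175.

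Serpinb6b was the only member at least 2-fold higher in KO in the numbered pair, with 9.23 FPKM in KO and 1.57 in WT, and it had 6.30 in KO and 4.13 in WT in the unnumbered pair. Its differences were 1.99 and 0.51. Serpinb8, a cytosolic serpin, had 0.487 FPKM in KO and 2.85 in WT of the numbered pair and 5.65 in KO and 1.66 in WT of the unnumbered pair, differences of -1.37 and 1.32. Serpinb2, plasminogen activator inhibitor 2, was close to the limit of 1 FPKM, with a numbered difference of 0.32. Serpinb1a, Serpinb6a, Serpinb6b, Serpinb9 and Serpinb9b have near copies in their cluster, so that reads may be split between relatives.

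From the Serpina3 group, which expanded in the mouse, 3 lines were expressed. Serpina3n, a secreted inhibitor of granzyme B and leukocyte elastase, had 0.452 FPKM in KO and 0.266 in WT of the numbered pair but 14.5 in KO and 22.2 in WT of the unnumbered pair, a difference of -0.58. The line of Serpina3f and Serpina3g, where Serpina3g inhibits cathepsins of the lysosome, had 5.46 FPKM in KO and 6.11 in WT, and 9.93 in KO and 14.8 in WT. Serpina3h, annotated as a transcribed pseudogene, reached 1.72 FPKM in KO and 0.654 in WT of the unnumbered pair, with 0.0639 in KO and 0.0793 in WT of the numbered pair. As in clade b, reads may be split between relatives. All 3 lines were higher in the unnumbered than in the numbered tables of the same genotype.

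**Figure D1:**
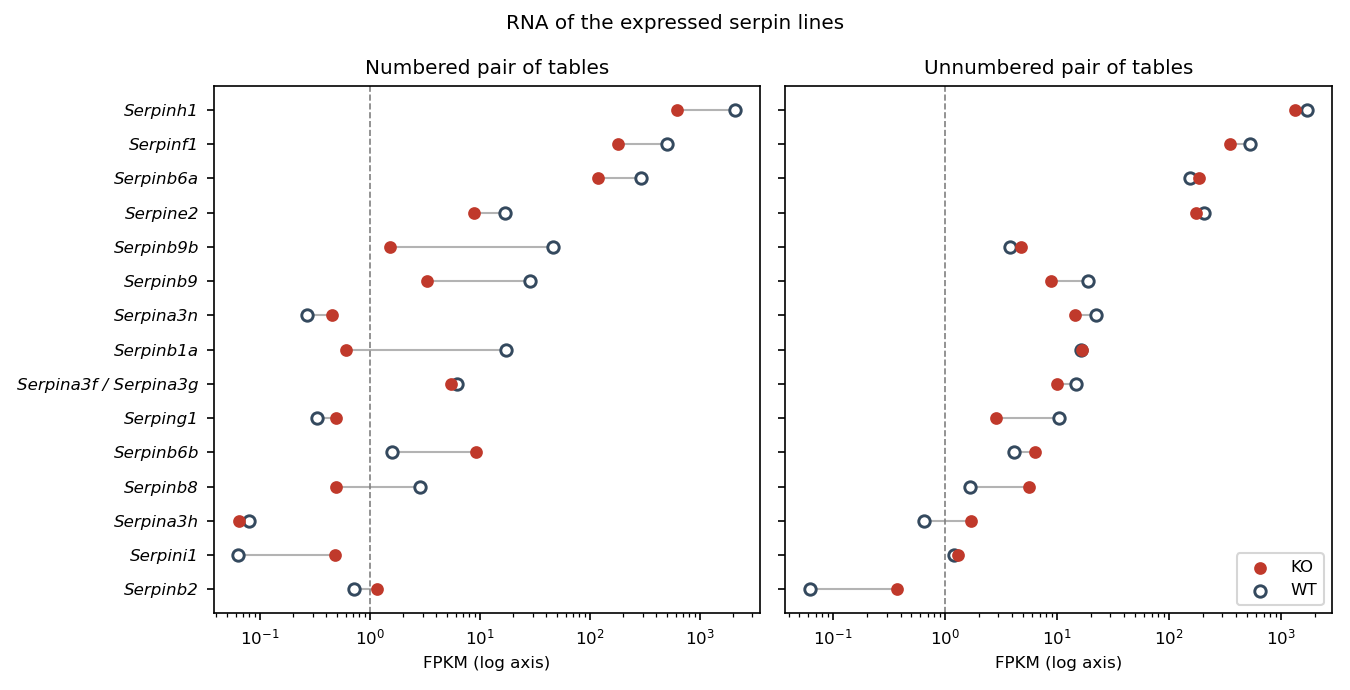
Level in FPKM on a log axis of 15 expressed serpin lines in the numbered (left) and unnumbered (right) pair, KO as filled and WT as open points, with a dashed line at 1 FPKM. Most lines lie lower in KO in the numbered pair, with Serpinb6b higher, and in the unnumbered pair the points of most lines lie closer together, with Serpinb8 higher in KO.

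Taken as a family, serpins were lower in KO in the numbered pair and divided in the unnumbered pair. A line was measured when it had 1 FPKM or more in either genotype of a pair. In the numbered pair, 8 of 12 measured lines were at least 2-fold lower in KO, against 15.7% of all measured genes, and 1 was at least 2-fold higher, against 6.50%. The median difference was -1.43, beside 0.06 over all measured genes. In the unnumbered pair 2 of 15 lines were at least 2-fold lower (3.83% of all measured genes) and 2 higher (1.74%), with a median of 0.04 beside 0.01, which was -0.30 with a minimum of 5 FPKM. The numbered values depended on scale, although the serpin median lay below that of all genes at either scale. Centred on the median of all measured genes, 8 lines were again at least 2-fold lower in the numbered pair and 1 higher. With both tables of a pair brought to the same summed FPKM, the median of all genes shifted to 1.10, that of the serpins to -0.29, and 3 lines were at least 2-fold lower, against 5.09% of all genes, and 1 higher, against 55.2%. The lower lines were Serpinb1a (-2.74), Serpinb9 (-1.73) and Serpinb9b (-3.27). Serpine2 turned to 0.25 and the Serpina3f and Serpina3g line to 0.90, both still below the 1.10 of all genes.

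Genes that work with these serpins were read from lists. Of 23 protease targets, cofactors and clearance genes, 1 of 11 measured in the numbered pair was at least 2-fold higher in KO, the plasminogen activator gene Plat (1.26), and 1 was lower, the collagen-cleaving cathepsin gene Ctsk (-2.68), where 6.50% and 15.7% of all measured genes were higher and lower. In the unnumbered pair 1 of 12 was higher, the urokinase receptor gene Plaur (2.00), and 4 were lower, the complement proteases C1s (-2.06) and C1ra (-1.39), Ctsk (-1.15) and Ctss (-2.80), where 1.74% and 3.83% of all measured genes were higher and lower. Ctss had 0.686 FPKM in KO and 10.7 in WT there, and 0.00917 in KO and 0 in WT of the numbered pair. The macrophage markers were also lower in KO of the unnumbered pair, and their part in these differences was not tested. With equal summed FPKM 8 of 11 were higher and 1 lower in the numbered pair, where 55.2% and 5.09% of all measured genes were higher and lower. Plau itself differed by 0.75 and 0.76. Of the 15 collagens and collagen-folding enzymes in the tables, 5 were at least 2-fold lower and 0 higher in the numbered pair, where Serpinh1 was lower as well and 15.7% of all measured genes were lower. They were Col1a1 (-1.76), Col5a1 (-1.13), P4ha2 (-1.05), the folding enzyme gene Fkbp10 (-2.06) and Leprel1 (-1.33). With equal summed FPKM 0 were lower and 4 higher, where 5.09% and 55.2% of all measured genes were lower and higher. In the unnumbered pair 1 was lower, Col3a1 (-1.16), where 3.83% of all measured genes were lower, and the list median was 0.15. Among 12 other antimicrobial genes, the numbered pair measured 0 and the unnumbered pair 2, the lysozyme genes Lyz1 (-2.53) and Lyz2 (-3.29), which are also made by macrophages.

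Chromatin separated the expressed from the silent members most clearly through H3.3-Flag. A gene counted as covered when at least 0.5 of its body lay in called regions. Serpina3f and Serpina3g share 1 RNA line, so both were counted as expressed although the line cannot tell them apart. Of the 17 expressed genes, 11 were covered by H3.3-Flag in KO and 9 in WT, where 36.7% and 34.9% of all expressed genes were. Of the 103 silent genes, 7 were covered in KO and 5 in WT, where 7.76% and 7.09% of all silent genes were. Serpinh1, on chromosome 7, lay wholly in H3.3-Flag and H3.3-HA calls in both genotypes. Serpinb9, Serpinb9b, Serpina3f, Serpina3g and Serpina3h lay wholly in H3.3-Flag calls in both. Serpina3n was covered to 100% in KO and 17.3% in WT, Serpinb6b to 100% in KO and 41.6% in WT, and Serpinb6a to 44.6% in KO and 47.0% in WT. By the signal value that the authors gave, the KO call over Serpina3n had 6.14 and that over Serpinb6b 15.7. The weakest WT H3.3-Flag calls in their clusters had 22.3 and 20.9. Serpinf1, among the most abundant, had none in either genotype. H3.3-HA covered 3 expressed genes in KO and 4 in WT (33.0% and 14.2% of all expressed genes), and 5 silent genes in KO and 0 in WT (21.0% and 3.13% of all silent genes).

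None of the expressed genes lay in PML calls in either genotype, where 0.0499% of all expressed genes did in KO and 0.965% in WT. H3K9me3 covered 1 expressed gene in KO and 2 in WT (15.1% and 6.06%). Serpinf1 was the one in KO, at 100%, with 0% in WT, and it lay in H3 calls in KO too. In WT they were Serpine2, at 0% in KO and 71.5% in WT, and Serpina3g, at 0% in KO and 66.5% in WT. H3K27me3 covered 3 expressed genes in KO and 4 in WT (10.8% and 13.4%). Serping1 was covered to 100% in both genotypes, Serpini1 to 81.8% in KO and 58.8% in WT, and Serpine2 to 50.8% in both, while Serpina3f was covered to 0% in KO and 100% in WT. Serpina3g and Serpina3f count as expressed here only through their shared RNA line. H3 covered 3 expressed genes in KO and 1 in WT (38.9% and 22.0%).

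**Figure D2:**
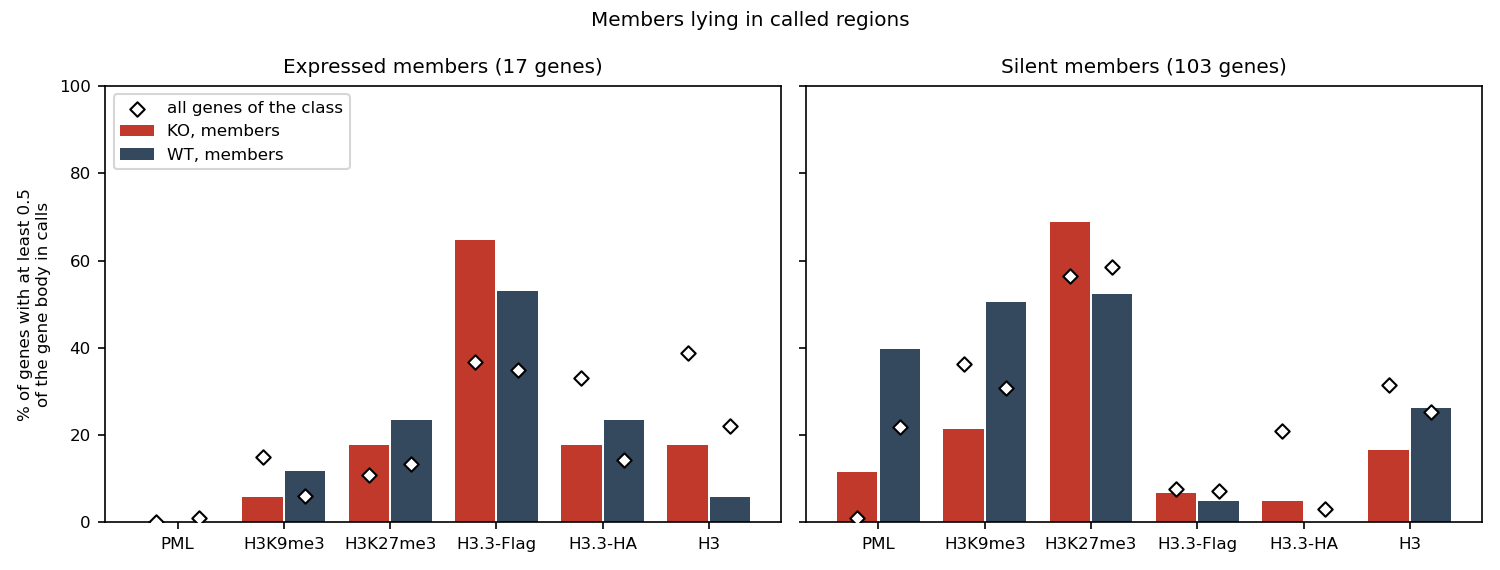
Percent of expressed members (left, 17 genes) and silent members (right, 103 genes) with at least 0.5 of the gene body in calls of each target, KO and WT bars side by side, with open diamonds for all genes of the same class. H3.3-Flag stands above the other targets for the expressed members, and H3K27me3 stands highest for the silent members in both genotypes, at 71 genes in KO and 54 in WT.

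Many silent members lay in H3K9me3 or H3K27me3 calls, and the mark that covered them differed between genotypes. H3K9me3 covered 22 of 103 silent genes in KO and 52 in WT, where it covered 36.4% and 30.8% of all silent genes. H3K27me3 covered 71 in KO and 54 in WT (56.5% and 58.5% of all silent genes). For H3K9me3 in KO and for H3K27me3 in WT, the share of silent members thus lay below that of all silent genes. PML covered 12 in KO and 41 in WT (1.02% and 21.8%), and H3 covered 17 in KO and 27 in WT (31.5% and 25.3%). At least 50 percentage points less H3K9me3 in KO was seen for 39 silent members and more for 9, against 12.5% and 18.0% of all silent genes. At least 50 points more H3K27me3 was seen for 32 and less for 15, against 7.41% and 8.59%. At least 50 points less PML was seen for 29, against 20.8%. Calls of these marks carried a signal value from the authors, on a scale not stated. These directions were the same for calls of any signal and at a minimum signal of 3, where H3K9me3 covered 22 silent genes in KO and 41 in WT, and H3K27me3 67 in KO and 39 in WT. At a minimum signal of 4, chosen after the calls were seen, H3K9me3 covered 20 silent genes in KO and 5 in WT, and H3K27me3 28 in KO and 37 in WT, so both directions turned.

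Genes inside the PML calls of WT differed most. Inside those calls were 41 members, all silent: 22 in the alpha- and beta-defensin cluster of chromosome 8, 12 in the beta-defensin cluster of chromosome 8 and 7 clade b serpins of chromosome 1. Of these 41, H3K9me3 covered 7 in KO and 38 in WT, and H3K27me3 covered 40 in KO and 11 in WT. Of all 2278 silent genes inside WT PML calls, H3K9me3 covered 39.1% in KO and 72.6% in WT, and H3K27me3 49.9% in KO and 28.6% in WT. Among the 62 silent members outside PML calls, H3K9me3 covered 15 in KO and 14 in WT, and H3K27me3 31 in KO and 43 in WT, where the shares of all silent genes outside were 35.7% in KO and 19.1% in WT for H3K9me3 and 58.4% in KO and 66.8% in WT for H3K27me3. Gene by gene, 26 silent members had H3K27me3 alone in KO and H3K9me3 alone in WT, out of 31 with H3K9me3 alone in WT. All 26 lay in PML calls of WT. Over all silent genes 233 of 1508 did so, or 15.5%, and over those inside WT PML calls 170 of 1181, or 14.4%. Neighbouring members share calls that run over many genes, so they are not independent.

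**Figure D3:**
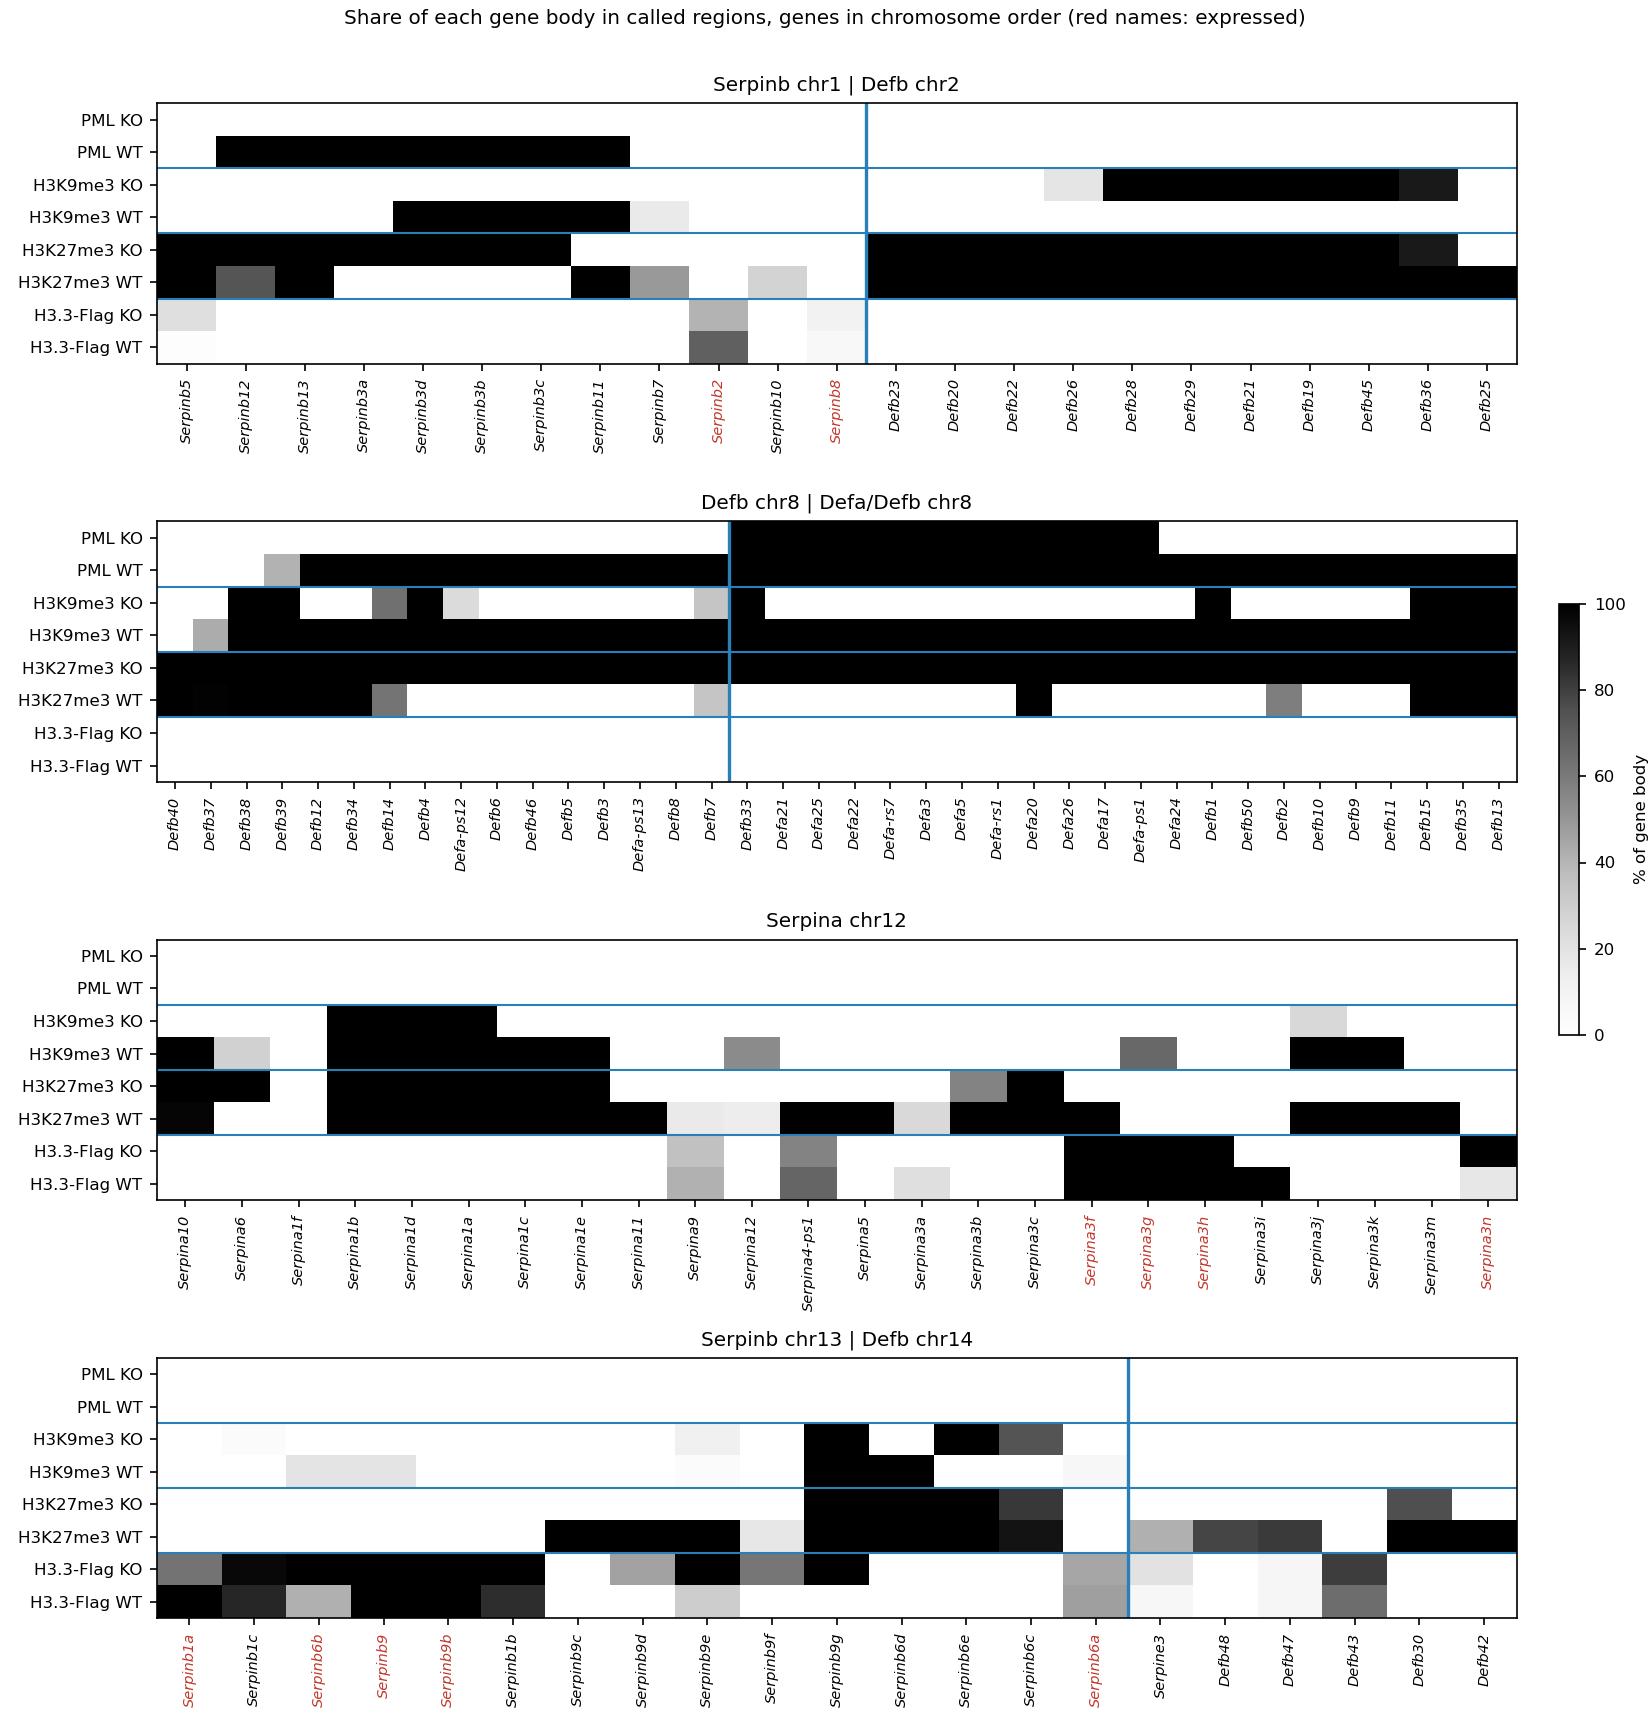
Percent of each gene body in called regions (white 0, black 100), with genes in chromosome order across and KO above WT for PML, H3K9me3, H3K27me3 and H3.3-Flag, and expressed genes named in red. The 2 clusters of chromosome 8 are dark for H3K27me3 in KO and for H3K9me3 in WT, and H3.3-Flag is dark over the expressed serpins of chromosomes 12 and 13.

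The members formed 8 clusters, runs of at least 3 members with gaps of at most 1 Mb, which held 109 genes, and 11 genes were isolated. Of the isolated genes 6 were expressed, and of the clustered genes 11. The largest block of silent chromatin was the alpha- and beta-defensin cluster of chromosome 8, 22 genes from Defb33 to Defb13 over 1056 kb (chr8:20892667-21948622). H3K9me3 covered 23.9% of its bases in KO and 100% in WT, and H3K27me3 100% in KO and 21.0% in WT. Over the analysed genome the values were 28.6% in KO and 32.7% in WT for H3K9me3 and 39.6% in KO and 37.4% in WT for H3K27me3. All 14 placed alpha-defensins of chromosome 8, which include 2 pseudogenes in the neighbouring cluster, were covered by H3K27me3 in KO, and 1 was in WT. By H3K9me3, 0 were covered in KO and 14 in WT. In both genotypes H3K9me3 covered 5 genes, Defb33, Defb1, a beta-defensin of epithelia, and the last ones, Defb15, Defb35 and Defb13.

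PML calls covered 76.5% of this cluster in KO and 100% in WT, so the KO library was not free of them. The KO call ran over chr8:20832001-21700000 (868 kb) and held 12 of the 22 genes, from Defb33 to Defa-ps1, while the WT call ran over chr8:20820001-22080000. Over the analysed genome PML calls covered 0.942% in KO and 20.0% in WT. The 500 kb on either side of the cluster also differed, with 63.0% H3K27me3 in KO and 32.3% in WT, and 59.8% H3K9me3 in KO and 71.2% in WT. H3.3-Flag covered 0% in both genotypes, and H3.3-HA 8.93% in KO and 0% in WT.

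The second cluster of chromosome 8 held 16 genes from Defb40 to Defb7 (chr8:18974914-19497775, 523 kb), among them the inducible beta-defensins Defb4, Defb3 and Defb14. PML calls covered 0% in KO and 83.7% in WT. H3K9me3 covered 26.97% in KO and 97.3% in WT, and H3K27me3 100% in KO and 52.2% in WT. Defb4 was in H3K9me3 in both genotypes and in H3K27me3 only in KO. Defb6, Defb46, Defb5, Defb3 and Defb8 were wholly in H3K27me3 in KO and wholly in H3K9me3 in WT, with the other mark at 0%. In KO the H3K27me3 calls of 1092 kb and 1354 kb had signals of 3.04 and 3.89, and in WT a single H3K9me3 call of 3069 kb with a signal of 3.03 spanned both clusters. The differences here thus rested on long calls of low signal, which a minimum of 4 removed.

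**Figure D4:**
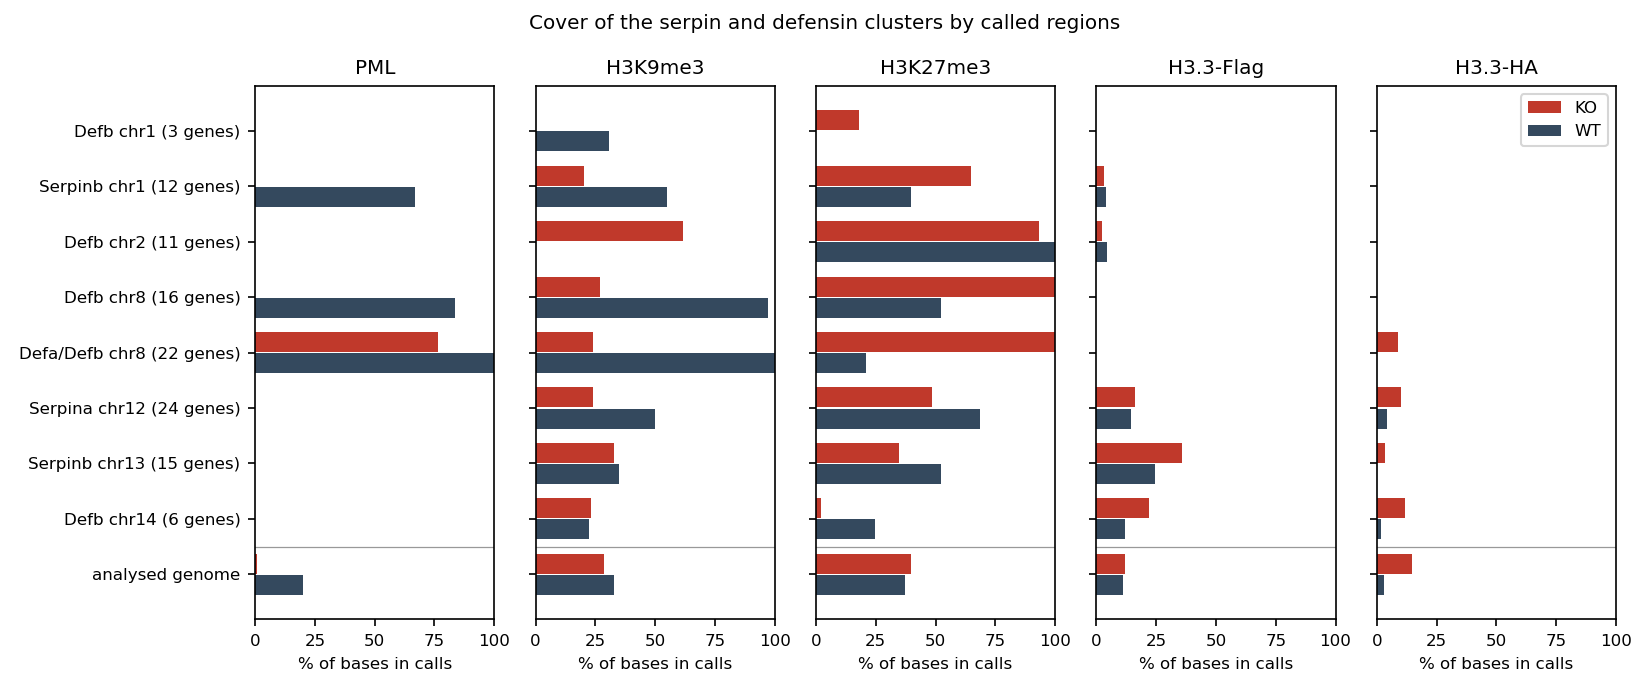
Percent of the bases of each cluster in called regions, with a panel per target, KO bars above WT bars, and the analysed genome at the bottom. PML bars appear in 3 of 8 clusters, H3K9me3 is longer in WT in 6 of 8 and H3K27me3 longer in KO in 4 of 8.

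The clade b cluster of chromosome 1 joined both states in 748 kb (chr1:106861175-107608978), with 12 genes from Serpinb5 to Serpinb8. PML calls held 0 of them in KO and 7 in WT, Serpinb12, Serpinb13, Serpinb3a, Serpinb3d, Serpinb3b, Serpinb3c and Serpinb11, all in 1 call (chr1:106900001-107400000). The Serpinb3 genes are the mouse relatives of the squamous cell carcinoma antigens. Serpinb3d, Serpinb3b and Serpinb3c were wholly in H3K27me3 in KO and wholly in H3K9me3 in WT, each with the other mark at 0%. Serpinb11 ran against them, with both marks at 0% in KO and 100% in WT. Over the cluster, H3K9me3 covered 20.2% in KO and 55.0% in WT, and H3K27me3 65.0% in KO and 39.8% in WT, and the longest WT H3K9me3 call (350 kb) had a signal of 0.931. Both expressed genes, Serpinb2 and Serpinb8, lay beyond the PML call and in neither mark. H3.3-Flag covered 40.5% of Serpinb2 in KO and 69.2% in WT.

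Clade a serpins formed the cluster of chromosome 12 (chr12:103616675-104414334, 798 kb), with 24 genes on 23 lines from Serpina10 to Serpina3n. PML calls covered none of it. H3K9me3 covered 24.2% in KO and 49.9% in WT, and H3K27me3 48.3% in KO and 68.7% in WT, so both were lower in KO. The 5 Serpina1 genes from Serpina1a to Serpina1e, relatives of alpha-1-antitrypsin made in the liver, were wholly in H3K27me3 in both genotypes. H3K9me3 covered 3 of them in KO and all 5 in WT. Serpina6, the glucocorticoid-binding globulin, was covered by H3K27me3 to 100% in KO and 0% in WT. Serpina5, Serpina11, Serpina3j, Serpina3k and Serpina3m had H3K27me3 at 0% in KO and 100% in WT, and their highest FPKM was 0.342, in Serpina3m. H3 calls covered 3.05% of this cluster in KO and 39.4% in WT.

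Expressed genes stood mainly at one end of the clade b cluster of chromosome 13 (chr13:32842092-34002794, 1161 kb), 15 genes from Serpinb1a to Serpinb6a with 5 expressed. The first 6 genes, Serpinb1a to Serpinb1b, had H3.3-Flag over 41.6% to 100% of their length and no H3K27me3 in either genotype, and 4 of them were expressed. The silent Serpinb1c was covered to 97.0% in KO and 86.9% in WT, and the silent Serpinb1b to 100% in KO and 85.0% in WT, and they reached 0.271 and 0.308 FPKM at most. Next to them Serpinb9c, Serpinb9d and Serpinb9e had H3K27me3 at 0% in KO and 100% in WT. H3.3-Flag covered 45.8% of Serpinb9d, 100% of Serpinb9e, 61.3% of Serpinb9f and 100% of Serpinb9g in KO, against 0%, 30.2%, 0% and 0% in WT. The KO calls over these genes had signals of 11.1, 15.3, 16.6 and 16.9. In this cluster the weakest H3.3-Flag call had a signal of 6.03 in KO and 20.9 in WT. Calls as weak as those over these genes were thus listed in KO alone. All 5 genes from Serpinb9c to Serpinb9g were at 0.0365 FPKM or less in all tables. Over the cluster H3.3-Flag covered 35.7% in KO and 24.5% in WT, and H3K27me3 34.6% in KO and 52.1% in WT, while PML calls covered none.

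The 3 other beta-defensin clusters had no PML calls. That of chromosome 2, 11 genes from Defb23 to Defb25 (chr2:152459055-152623053, 164 kb), lay wholly in H3 calls in both genotypes, and H3K27me3 covered 93.3% in KO and 100% in WT. H3K9me3 covered 61.6% in KO and 0% in WT, and the 6 genes from Defb28 to Defb36 were covered in KO only. Defb25, the silent line with the highest FPKM, was the one gene with H3K27me3 at 0% in KO and 100% in WT. On chromosome 14 (chr14:62663298-63048606, 385 kb), Serpine3 and 5 beta-defensins from Defb48 to Defb42 had H3K27me3 over 2.08% in KO and 24.6% in WT. On chromosome 1 (chr1:18210053-18265138, 55 kb), the 3 genes from Defb44-ps to Defb41 had H3K9me3 over 0% in KO and 30.9% in WT. H3K27me3 covered 18.2% in KO and 0% in WT there. Each mark rested on 1 call of very low signal, 0.235 for H3K9me3 and 0.1 for H3K27me3.

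Isolated silent serpins each had a pattern of their own. Serpinf2, the plasmin inhibitor next to Serpinf1, was covered by H3K9me3 to 100% in KO and 0% in WT and by H3K27me3 to 0% in KO and 80.7% in WT. It lay wholly in H3 and H3.3-HA calls in KO and outside them in WT, as Serpinf1 did. Serpini2 had H3K27me3 at 100% in KO and 0% in WT, and Serpina7, the thyroxine-binding globulin on the X, at 100% in both. Serpinc1, antithrombin, had H3.3-HA at 100% in KO and 0% in WT.

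Promoter sequences were compared to ask what the members share outside the region lists. RefSeq windows of 300 bases, 250 before and 50 after the start of a gene on GRCm38.p6, were matched for 85 members, 13 expressed and 72 silent. H3.3-Flag calls held the window of 12 of 13 expressed members in KO and 10 in WT, where 54.3% and 66.1% of all expressed genes had theirs in a call. Among silent members it was 9 of 72 in KO and 6 in WT (9.88% and 10.7% of all silent genes). The windows of expressed members held a median of 4 CpG (range 1 to 41) and those of silent members 2 (range 0 to 11). At least 10 CpG were found in 4 of 13 expressed and 2 of 72 silent members, beside 87.9% of all expressed and 26.8% of all silent genes. The expressed members with many CpG were Serpine2 (41), Serpinb6a (25), Serpinh1 (16) and Serpini1 (15), so 9 expressed serpins had fewer than 10.

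The 250 bases before the start are given for 8 members chosen to show this range, with every CpG and every TATAAA (read as TTTATA on the other strand) in capitals. Serpinh1 (chr7:99353240-99353489, minus strand), Serpine2 (chr1:79858666-79858915, minus) and Serpinb6a (chr13:34002795-34003044, minus) are the abundant members with CpG-rich starts, all in H3.3-Flag calls in both genotypes, and Serpine2 in H3K27me3 calls in both as well. Serpinb9b (chr13:33027164-33027413, plus) is expressed from a CpG-poor start, also in H3.3-Flag calls in both. Serpinb9d (chr13:33192705-33192954, plus) is a silent neighbour whose window was in H3.3-Flag in KO and in H3K27me3 in WT. Serpinb3d (chr1:107083481-107083730, minus), Defb5 (chr8:19247342-19247591, plus) and Defa21 (chr8:21025295-21025544, plus) are silent genes inside WT PML calls, whose windows were in H3K27me3 in KO and in H3K9me3 in WT. The window of Defa21 lay in a PML call in KO as well, whereas those of Serpinb3d and Defb5 did not.
Serpinh1: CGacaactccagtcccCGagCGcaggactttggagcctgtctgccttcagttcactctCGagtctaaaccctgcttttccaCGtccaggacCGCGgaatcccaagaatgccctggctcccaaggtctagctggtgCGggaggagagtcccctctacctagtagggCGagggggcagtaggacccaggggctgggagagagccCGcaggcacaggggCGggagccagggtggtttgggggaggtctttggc
Serpine2: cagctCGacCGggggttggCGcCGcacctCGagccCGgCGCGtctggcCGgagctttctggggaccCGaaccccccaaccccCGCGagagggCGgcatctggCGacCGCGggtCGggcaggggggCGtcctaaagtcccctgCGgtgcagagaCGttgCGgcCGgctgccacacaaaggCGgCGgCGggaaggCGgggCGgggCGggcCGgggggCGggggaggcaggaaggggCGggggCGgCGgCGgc
Serpinb6a: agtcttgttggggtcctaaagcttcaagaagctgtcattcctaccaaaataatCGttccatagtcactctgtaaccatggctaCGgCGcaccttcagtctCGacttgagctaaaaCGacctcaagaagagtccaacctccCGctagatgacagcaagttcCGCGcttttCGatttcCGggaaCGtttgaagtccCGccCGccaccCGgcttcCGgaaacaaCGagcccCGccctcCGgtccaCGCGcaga
Serpinb9b: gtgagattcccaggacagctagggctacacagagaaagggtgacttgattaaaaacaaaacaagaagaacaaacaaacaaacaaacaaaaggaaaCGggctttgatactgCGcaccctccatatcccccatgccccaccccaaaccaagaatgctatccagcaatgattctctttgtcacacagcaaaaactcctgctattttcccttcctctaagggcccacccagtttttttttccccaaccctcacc
Serpinb9d: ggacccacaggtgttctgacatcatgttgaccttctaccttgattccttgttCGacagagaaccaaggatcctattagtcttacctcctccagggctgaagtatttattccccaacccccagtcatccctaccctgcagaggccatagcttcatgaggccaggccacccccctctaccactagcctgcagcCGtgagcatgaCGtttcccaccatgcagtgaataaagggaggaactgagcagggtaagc
Serpinb3d: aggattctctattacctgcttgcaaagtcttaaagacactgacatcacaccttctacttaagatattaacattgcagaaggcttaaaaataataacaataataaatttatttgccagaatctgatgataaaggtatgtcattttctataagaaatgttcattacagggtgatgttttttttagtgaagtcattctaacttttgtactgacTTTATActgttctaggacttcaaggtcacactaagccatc
Defb5: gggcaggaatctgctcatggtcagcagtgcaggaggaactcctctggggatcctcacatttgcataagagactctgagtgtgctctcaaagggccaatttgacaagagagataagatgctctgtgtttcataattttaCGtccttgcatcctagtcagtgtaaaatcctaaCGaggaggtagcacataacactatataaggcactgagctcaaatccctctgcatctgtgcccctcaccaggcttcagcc
Defa21: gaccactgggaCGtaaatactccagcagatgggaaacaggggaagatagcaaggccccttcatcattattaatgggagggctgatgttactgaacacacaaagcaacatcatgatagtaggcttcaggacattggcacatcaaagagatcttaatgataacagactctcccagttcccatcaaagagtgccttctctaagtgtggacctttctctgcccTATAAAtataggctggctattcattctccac

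These stretches held 34 CpG in Serpine2, 20 in Serpinb6a and 11 in Serpinh1, against 2 in Serpinb9b, 3 in Serpinb9d, 0 in Serpinb3d, 2 in Defb5 and 1 in Defa21. The TATAAA of Defa21 and the TTTATA of Serpinb3d stand in the last 50 bases before the start, and all 4 alpha-defensin windows matched held it. Over all members it was in 1 of 13 expressed and 22 of 72 silent windows, beside 6.46% of all expressed and 20.0% of all silent genes. The pattern TTCNNNGAA, the form of STAT binding sites, was in 4 of 13 expressed windows, those of Serpinb2, Serpina3f, Serpina3g and Serpinb6a, and in 7 of 72 silent ones, beside 6.61% of all expressed and 9.50% of all silent genes. Serpina3f and Serpina3g count as expressed there through their shared RNA line, which cannot tell them apart. The pattern GAANNTTC, found in heat shock elements, was in 1 of 13 and 10 of 72, beside 5.39% and 8.89%, and Serpinh1 did not hold these letters in its window. All patterns were searched on both strands, and a match is a description and not a site of binding. The stretch of Defa22 (chr8:21162027-21162276, plus) matched that of Defa21 in 250 of 250 bases. Reads from such copies cannot be placed with certainty, which bears on every value given for the alpha-defensins.

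**Figure D5:**
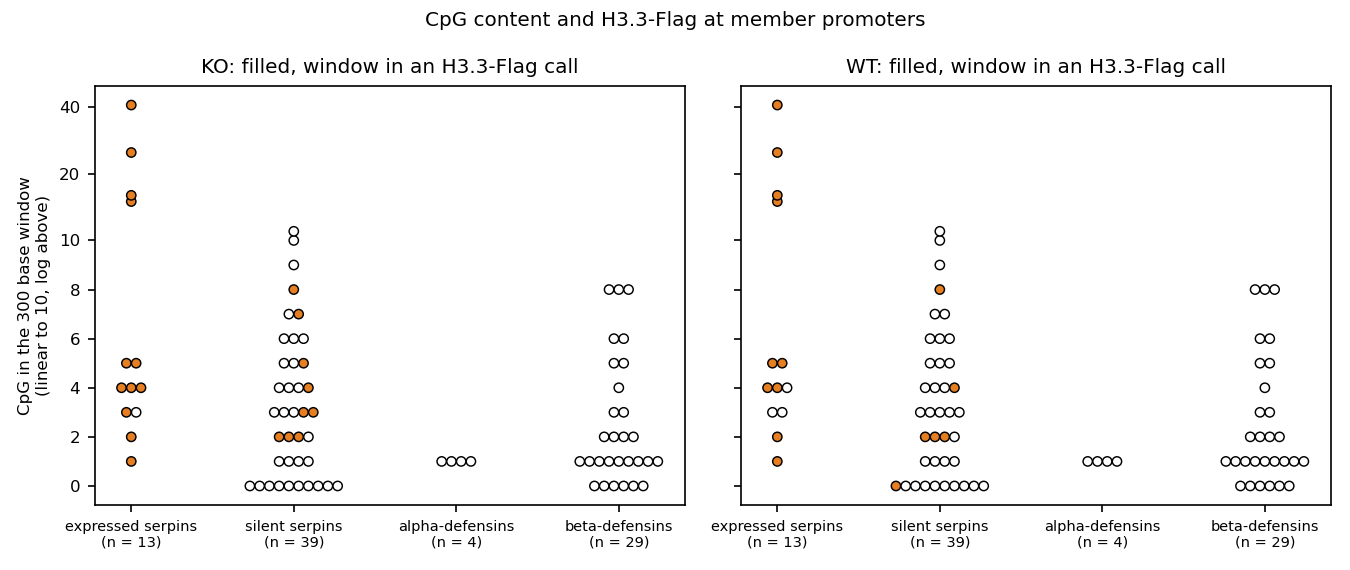
CpG in the 300 base promoter window (linear to 10, log above) for 13 expressed serpins, 39 silent serpins, 4 alpha-defensins and 29 beta-defensins, with KO left and WT right, and filled points for windows in an H3.3-Flag call. Filled points make up 12 of 13 expressed serpins in KO and 10 in WT, and no defensin window is filled.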

How the data were processed

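ChIP regions of 12 libraries and RNA of 8 samples were analysed in KO and WT fibroblasts. The submitters' processing notes name mm10 and the tools Cuffdiff 2.2.1, Cufflinks 2.2.1, TopHat2 2.0.8b and Bowtie 1.0.0, and no source used here names the region caller. Expression was deposited by the authors as FPKM, with 0 columns of single replicates in the pooled tables. Region lists deposited by the authors held a score for each region and, for H3.3, H3K9me3 and H3K27me3, also a signal on a scale not stated; the score was not used. Signal times length in kb was whole within 0.01 for 99.9% of WT H3K9me3 regions on chromosomes 1, 2 and 8, but for 6.45% on chromosomes 12, 13 and 14, so a minimum signal need not mean the same on both.

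Cover was computed on chromosomes 1 to 19 and X from base 3000000, and RNA differences as KO minus WT of log2(FPKM + 1), with Python 3.11.15, numpy 2.4.6, pandas 2.3.3 and matplotlib 3.10.9. Named were expressed members, the ends of each cluster, list genes with a 2-fold difference and some of the members whose cover differed by at least 50 points. Those and other named genes were chosen after their values were seen. The values of 1 expressed serpin, counted in the totals, are not reported here. Members, lists and rules were chosen with earlier results of these data known. Cover and fold changes were tested on simulated data. The planted changes were larger than 2-fold and lay in well expressed genes, so their recovery says nothing about weakly expressed members or changes near 2-fold. Alternatives changed the pseudocount, the minimum FPKM, the scale, the covered share, the flank, the minimum signal, the H3 bases and the gap between clusters. Region depth and read totals were unknown, so no detection limit could be given.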

Additional observations from a re-analysis of the deposited data

Results flagged for a closer look

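Serpinb8 differed by at least 2-fold between KO and WT in both pairs of tables, in opposite directions. Its KO minus WT difference was -1.37 (numbered) and 1.319 (unnumbered). With the tables of a pair brought to the same summed FPKM, the values were -0.75 and 1.35, so the numbered difference was then below 2-fold. Each pair had 1 value per genotype, and the difference between the pairs was not tested.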

How the results depend on the processing

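No paired analysis was possible because the numbered replicates had been pooled by the authors into 1 value per gene and genotype, and for the same reason no replicate could be left out in turn. Over 162 results under another setting, 131 were close to the value reported (counts within 1.5 times), and the cause of the others was not tested except where fewer bases were kept by construction. Among the 131, the 4 without a minimum FPKM could not change, since with a pseudocount of 1 values below 1 FPKM cannot differ 2-fold. Counts below are genes covered. Without bases called in H3, silent genes were 12 for H3K9me3 in KO and 33 for H3K27me3 in WT, and expressed genes 0 for H3K9me3 in KO and 1 for H3.3-HA in KO. With the 300 Mb of highest signal, silent genes were 0 in KO and 5 in WT for H3K9me3 and 16 in KO and 18 in WT for H3K27me3, which turned the direction of H3K27me3, and expressed genes were 0 in KO and 0 in WT for H3K9me3 and 0 in KO and 1 in WT for H3K27me3. At a minimum signal of 4, added after the calls were seen, silent genes were 20 in KO and 5 in WT for H3K9me3 and 28 in KO and 37 in WT for H3K27me3, and expressed genes were 0 for H3K9me3 in WT and 1 in KO and 2 in WT for H3K27me3. At a minimum of 1 or 3, expressed genes with H3K9me3 in WT were 0. At a minimum of 3, expressed genes with H3K27me3 in WT were 2, H3.3-HA in KO covered 3 silent genes and 1 expressed gene, and 3 clusters had less H3K9me3 in KO. With 0.75 of the gene body, expressed genes in WT were 0 for H3K9me3 and 2 for H3K27me3, and silent genes with H3.3-Flag in WT were 3. With 5 kb on either side, expressed genes with H3K9me3 in WT were 1, and silent genes with H3.3-Flag in WT were 3. With equal summed FPKM, added after the sums were seen, members at least 2-fold lower in KO were 3 in the numbered and 1 in the unnumbered pair, and the numbered median was -0.29. Read depth was unknown throughout.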
